A study of Mus musculus with 13 samples.

Results

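33 genes of glycolysis and of the response to low oxygen were followed in microglia from newborn mouse brain, out of 55487 genes in the deposited table. They were chosen by name and found through their Ensembl identifiers, and all 33 were present with enough counts to be tested. The groups are offspring of mothers exposed to maternal immune activation (MIA) and control offspring (CON), and the comparison asks how activation of the mother's immune system changes the microglia of her young. The titles give postnatal day 4 for both groups, and there were 5 CON and 5 MIA libraries. CON 6, MIA 6 and MIA 7 are titled as excluded. These 3 libraries are shown by value and take part in the scaling of the printed levels, and they enter only the fits that say so. The sources used here do not give the agent, the strain, the sex or the litters, and nothing says whether libraries came from separate animals. The p-values therefore measure the spread between these libraries, which may be technical. Cells were taken from the whole, unperfused brain after papain digestion with beads against the surface protein CD11b, so other cells carried along with the beads also contribute RNA.

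Glycolysis splits glucose into pyruvate in the cytosol, and lactate dehydrogenase turns pyruvate into lactate when it is not burned in mitochondria. Macrophages such as microglia raise this pathway when they are activated. Cells sense oxygen through prolyl hydroxylases of the Egln family, which mark the alpha subunits HIF-1alpha (Hif1a) and HIF-2alpha (Epas1) for destruction while oxygen is present. When oxygen falls, an alpha subunit pairs with Arnt, binds the core motif ACGTG or GCGTG, and turns on glycolytic enzymes together with genes such as Car9, Adm and Bnip3.

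The 13 libraries held between 25387100 and 35593500 counts, and totals were lower in the retained MIA libraries than in the retained CON libraries (27563300 ± 1962080 against 31836800 ± 3307870, SD, n = 5 each; 2-sided exact permutation p = 0.0476). Levels are given as CPM, counts scaled to a common library size. Microglial identity was clear in every library: 10 microglia markers, among them Tmem119 and Csf1r, summed to 23250 to 29810 CPM in CON and 15240 to 19700 CPM in MIA. Markers of other cells moved with the groups. 10 endothelial markers summed to 874 to 1454 CPM in CON and 2634 to 4434 CPM in MIA, and 10 neuronal markers to 58.4 to 78.1 and 107 to 160 CPM. All 10 endothelial and 5 of the 10 neuronal markers rose, and 9 of the 10 microglia markers fell. Of all genes tested, edgeR called 5.75% higher and 4.58% lower. None of 8 astrocyte markers passed in edgeR (1 at an unadjusted p under 0.05, and 1 with DESeq2), and their sum was highest in CON 1, at 915 CPM. In such bulk RNA, fewer cells of a type and less RNA per cell cannot be told apart. Monocyte and neutrophil markers summed to 49.3 to 117 CPM in the retained controls and 34.6 to 51.9 CPM in the retained MIA libraries. None of the 7 tested passed in edgeR (3 at an unadjusted p under 0.05), DESeq2 called 3 lower, and the neutrophil gene Ly6g had 0 counts in 8 of the 13. CON 1 and CON 2 stood apart from the other 11 libraries, with 2435 and 2247 CPM against 6186 to 9995 CPM in 12 genes induced by tissue dissociation, and with 61.4 and 80.3 CPM against 1162 to 3049 CPM in 6 red blood cell genes.

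Among the 33 genes, Epas1, Adm, Ankrd37 and the platelet-type phosphofructokinase gene Pfkp rose 1.87-fold to 2.90-fold, and the carbonic anhydrase gene Car9 fell 2.03-fold. In all, 4 members rose and 1 fell, 15.2% of the 33, against 10.3% of the 15511 genes tested with edgeR at a Benjamini-Hochberg adjusted threshold of 0.05. Of all genes tested 5.75% were called higher and 4.58% lower, the background for each group of members below. The median log2 fold change was −0.039 over the members and −0.0085 over all genes tested. For the same 5 members the MIA and CON libraries did not overlap, as was the case for 9.95% of all genes tested.

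**Figure D1:**
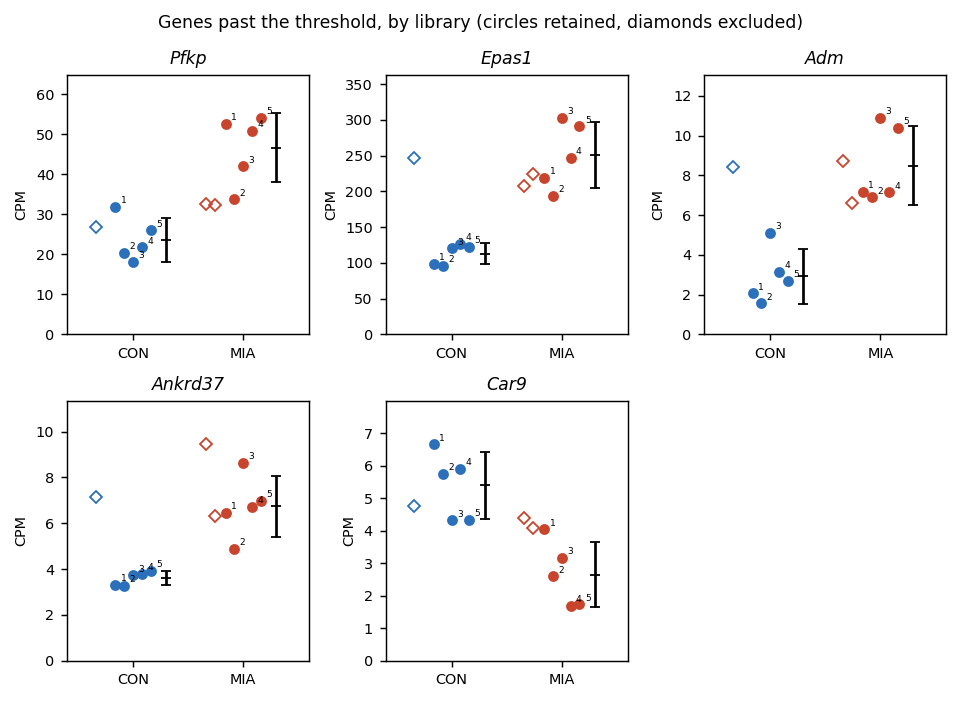
CPM of the 5 genes past the threshold in each library; circles are retained libraries with their replicate numbers, diamonds are the excluded libraries, and the black bars give the mean ± SD of the 5 retained libraries. The MIA circles lie above the CON circles for Pfkp, Epas1, Adm and Ankrd37 and below them for Car9, and the diamond of CON 6 lies at MIA level for Epas1 (247 CPM), Adm (8.41 CPM) and Ankrd37 (7.16 CPM).

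Epas1, which encodes HIF-2alpha and is strongly expressed in blood vessel endothelium, stood at 98.5, 96.3, 120, 127 and 123 CPM in CON 1 to CON 5. In MIA 1 to MIA 5 it stood at 219, 194, 303, 247 and 291 CPM. Every MIA library was above every retained control, and MIA 3, the library with the most endothelial marker RNA, was the highest. The rise was 2.22-fold, or 1.15 ± 0.13 in log2 (SE), and edgeR gave an adjusted p of 0.000183. The endothelial markers, whose median log2 fold change was 1.42, moved with it, and their part in the result was not tested.

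Adm encodes adrenomedullin, a peptide that widens vessels and is made by many cells in low oxygen. It stood at 2.07, 1.57, 5.10, 3.16 and 2.69 CPM in CON 1 to CON 5 and at 7.16, 6.90, 10.9, 7.14 and 10.4 CPM in MIA 1 to MIA 5. It was lowest in CON 1, CON 2 and CON 5 and highest in MIA 3 and MIA 5, with no overlap. With 1.54 ± 0.30 (SE; edgeR adjusted p = 0.00559) it had the largest log2 fold change of the 33. MIA 3 and MIA 5 also held the most endothelial marker RNA (4434 and 3722 CPM), whose part in the rise of Adm was not tested. Ankrd37, an ankyrin repeat gene induced by HIF-1, was at 3.32, 3.28, 3.73, 3.80 and 3.92 CPM in the controls and at 6.46, 4.89, 8.64, 6.73 and 6.99 CPM in the MIA libraries. The controls were tightly grouped and the MIA libraries spread more widely above them. The log2 difference was 0.90 ± 0.20 (SE), for which edgeR gave an adjusted p of 0.0105. MIA 3 was again the highest, and the part of endothelial RNA in the rise of Ankrd37 was not tested. Exons of Ufsp2 and Lrp2bp overlap Ankrd37 on the other strand, and the kit does not mark strand, so their reads cannot be told apart there. Ufsp2 averaged 58.2 ± 8.45 CPM in controls against 51.0 ± 7.59 (SD, n = 5 each) and did not pass, and Lrp2bp stayed at or below 1.31 CPM in these libraries.

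Car9, a cell-surface carbonic anhydrase that is a textbook HIF-1 target, moved the other way. It stood at 6.66, 5.76, 4.32, 5.90 and 4.33 CPM in CON 1 to CON 5 and at 4.04, 2.60, 3.16, 1.69 and 1.73 CPM in MIA 1 to MIA 5. The highest MIA library, MIA 1, came close to the lowest control, CON 3. Its log2 fold change was −1.02 ± 0.28 (SE), with an edgeR adjusted p of 0.0353. Leaving out any single one of CON 2, CON 4, MIA 2, MIA 3, MIA 4 and MIA 5 ended the call (edgeR adjusted p at most 0.0973).

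The promoters of the called members are shown with the HIF core motif marked, so that its position can be read beside the direction in which each gene moved. Each line gives the 250 bases before the RefSeq transcription start in GRCm38.p6, read 5′ to 3′ on the gene's strand, and capitals mark every ACGTG or GCGTG on either strand (CACGT or CACGC where it lies on the opposite strand). Epas1 is named only. Adm lies at chr7:110627407-110627656 on the plus strand, Ankrd37 at chr8:45999851-46000100 on the minus strand, Pfkp at chr13:6648772-6649021 on the minus strand and Car9 at chr4:43506776-43507025 on the plus strand.
Adm: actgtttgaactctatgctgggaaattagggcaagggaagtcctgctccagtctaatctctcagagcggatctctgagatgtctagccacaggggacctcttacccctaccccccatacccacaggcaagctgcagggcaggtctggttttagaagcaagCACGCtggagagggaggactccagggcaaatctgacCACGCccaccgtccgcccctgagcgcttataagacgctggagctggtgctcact
Ankrd37: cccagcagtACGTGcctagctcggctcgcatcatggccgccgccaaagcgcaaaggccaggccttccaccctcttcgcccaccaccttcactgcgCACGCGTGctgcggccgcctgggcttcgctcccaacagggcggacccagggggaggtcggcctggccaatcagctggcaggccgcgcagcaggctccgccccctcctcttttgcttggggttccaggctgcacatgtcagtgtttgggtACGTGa
Pfkp: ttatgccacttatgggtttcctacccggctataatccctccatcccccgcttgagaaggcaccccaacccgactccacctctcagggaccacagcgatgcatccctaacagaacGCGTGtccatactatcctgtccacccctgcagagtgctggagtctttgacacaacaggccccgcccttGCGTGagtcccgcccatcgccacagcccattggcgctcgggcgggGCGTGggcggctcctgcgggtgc
Car9: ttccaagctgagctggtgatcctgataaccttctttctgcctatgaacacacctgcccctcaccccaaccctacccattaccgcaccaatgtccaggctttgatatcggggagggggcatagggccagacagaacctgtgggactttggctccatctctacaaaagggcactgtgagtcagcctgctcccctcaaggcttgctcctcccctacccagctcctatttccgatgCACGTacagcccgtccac
Ankrd37 held 4 such matches, 2 of them the overlapping GCGTG pair on both strands and the last beginning 6 bases before the start. Pfkp held 3, Adm 2 and Car9 1, beginning 18 bases before the start, and the motif was thus present both in genes that rose and in the one that fell. At least 1 match stood in 27 of the 30 members with a promoter entry (90%), against 59.1% of 11440 tested genes with an entry and 38.6% of all 32851 promoter windows. 2 or more matches stood in 56.7% of these members and 29.9% of the tested genes. The members were picked partly as known HIF targets and some have several starts, so these shares are a description, and a match is not a measured binding site.

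**Figure D2:**
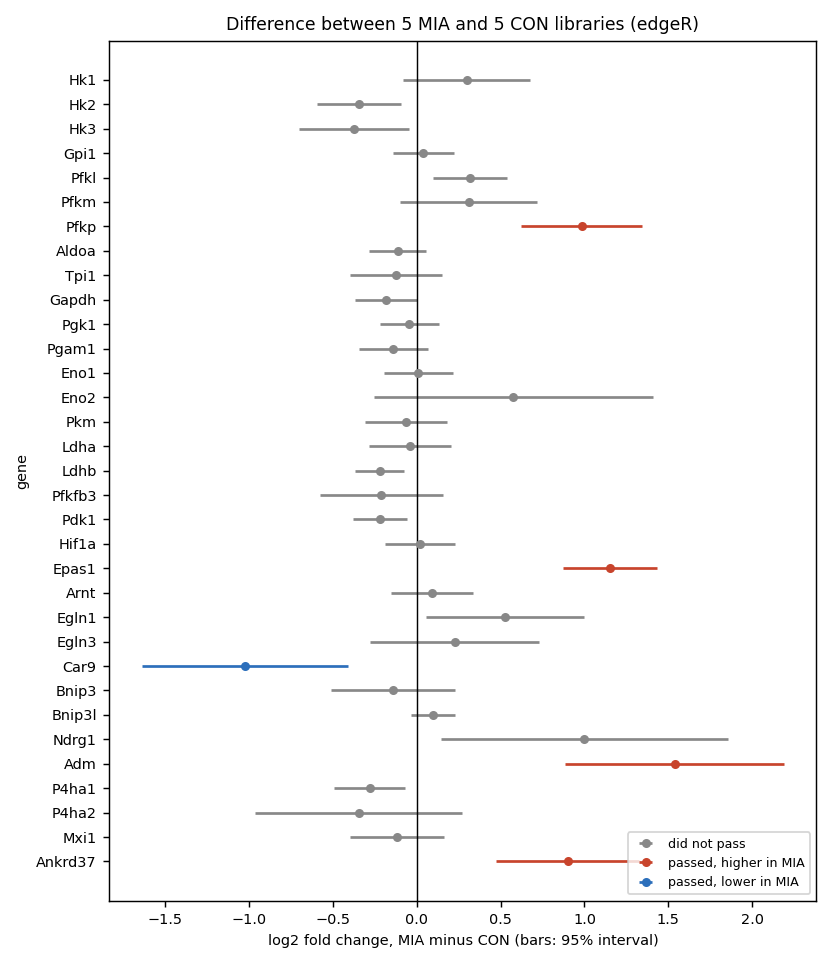
Log2 fold change of each of the 33 genes, MIA minus CON, with its 95% interval from the edgeR fit over 5 and 5 libraries, grouped from top to bottom as glycolytic enzymes, flux regulators, oxygen sensing and hypoxia-responsive genes. Red and blue points passed the threshold (4 higher, 1 lower) and grey points did not. The abundant genes Gpi1, Aldoa, Tpi1, Gapdh, Pgk1, Pgam1, Eno1, Pkm and Ldha sit near 0 with narrow intervals.

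Of the 17 glycolytic enzyme genes, edgeR called 1 higher and none lower, 5.88% against 10.3% of all genes tested. Among the 17, 5 had an unadjusted edgeR p under 0.05, and DESeq2 also called Ldhb lower, with an adjusted p of 0.0247. The median log2 fold change of the 17 was −0.043. Together they held 6402 ± 813 CPM in controls against 6065 ± 265 CPM (SD, n = 5 each) after MIA, with the controls spanning 5358 to 7229 CPM and the MIA libraries 5724 to 6378 CPM, inside the control range. Apart from phosphofructokinase, described further on, the steps from Gpi1, which isomerises glucose phosphate, down to Ldha include 9 abundant genes, namely Gpi1, Aldoa, Tpi1, Gapdh, Pgk1, Pgam1, Eno1, Pkm and Ldha. None of these 9 passed, and the 95% intervals of their log2 fold changes lay between −0.40 and 0.22, so changes within that range could not be told from none. Ldhb, the other lactate dehydrogenase gene, is not among the 9 although its level (293 and 252 CPM in CON and MIA) was above that of Pgk1. Its 95% interval, −0.36 to −0.07, lay below 0, and it did not pass in edgeR.

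Gapdh, which oxidises glyceraldehyde phosphate, was the most abundant member. It stood at 1161, 1117, 1197, 1476 and 1435 CPM in CON 1 to CON 5 and at 1136, 1129, 1117, 1128 and 1118 CPM in MIA 1 to MIA 5. The MIA libraries were nearly identical and lay with CON 1 to CON 3, while CON 4 and CON 5 were higher. Pkm, the pyruvate kinase of most tissues, stood at 802, 983, 1029, 1214 and 1235 CPM in CON and at 999, 1025, 1149, 938 and 930 CPM in MIA. Eno1, the general enolase, stood at 672, 757, 795, 902 and 928 CPM in CON and at 791, 829.1, 926, 780 and 760 CPM in MIA. In both genes CON 1 was the lowest library and the MIA libraries fell within the control range.

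Ldha encodes the lactate dehydrogenase chain that favours lactate formation. Its controls ran 481, 673, 616, 765 and 752 CPM, and its MIA libraries 684, 648, 667, 612 and 588 CPM. Aldoa, the muscle-type aldolase, stood at 518, 529, 522, 623 and 617 CPM in CON and at 558, 517, 507, 536 and 479 CPM in MIA. Tpi1, triosephosphate isomerase, stood at 269, 361, 376, 444 and 459 CPM in CON and at 373, 364, 382, 329 and 308 CPM in MIA. For Ldha and Tpi1, CON 1 lay below every other library, and for all 3 CON 4 and CON 5 were the highest retained libraries. Gpi1 (348 ± 42.4 and 357 ± 9.79 CPM), Pgk1 (241 ± 29.0 and 234 ± 5.73) and Pgam1 (357 ± 43.0 and 324 ± 30.3; SD, n = 5 each) also overlapped between the groups and were not called.

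**Figure D3:**
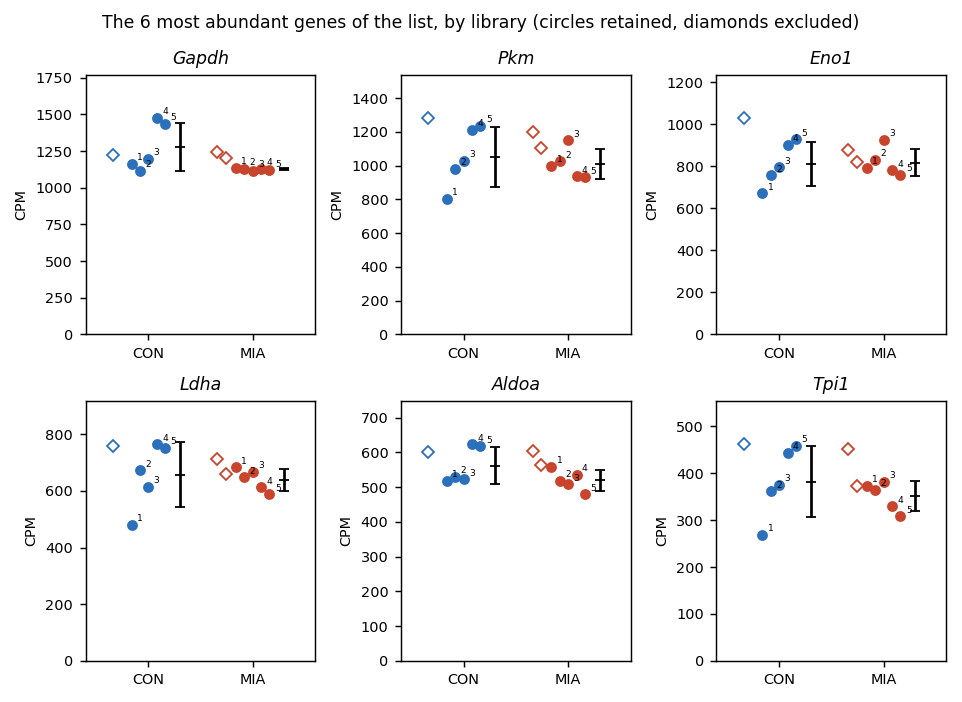
CPM of the 6 most abundant genes of the list in each library; circles are retained libraries with their replicate numbers, diamonds the excluded libraries, bars the mean ± SD of 5. In each panel the groups overlap; the MIA circles are tightly packed for Gapdh (1117 to 1136 CPM), while the controls spread from CON 1 or CON 2 at the bottom to CON 4 or CON 5 at the top.

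The controls varied more than the MIA libraries in 16 of the 17 enzyme genes (94.1%), against 63.3% of all genes tested; the measure is the SD of log2 CPM over 5 libraries. The median SD over the enzymes was 0.25 in CON and 0.12 in MIA. With CON 3 to CON 5 alone, the controls still had the larger SD in 13 of 17 (76.5%, against 41.2% of all genes tested), at a median of 0.15. CON 1 or CON 2 was the lowest of the 10 retained libraries in 10 of the 17 genes, a count that was not taken over all genes tested. CON 1 and CON 2 were also low in dissociation-induced genes and red blood cell RNA, and the part of either in the spread was not tested.

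Phosphofructokinase carries the step that commits sugar to glycolysis, and it is built from subunits of a small gene family. Pfkp stood at 31.9, 20.3, 18.1, 21.7 and 26.0 CPM in CON 1 to CON 5 and at 52.6, 33.7, 42.0, 50.9 and 54.1 CPM in MIA 1 to MIA 5. MIA 2 came close to CON 1, and the other MIA libraries were well clear of the controls. Endothelial and neuronal marker sums were higher in the same MIA libraries, and their part was not tested. On the log2 scale the rise was 0.98 ± 0.17 (SE), with an edgeR adjusted p of 0.00244; Pfkp kept its call in all 19 alternative fits. The liver-type gene Pfkl was at 112 ± 16.9 and 139 ± 10.1 CPM (SD, n = 5 each) with an edgeR adjusted p of 0.0700, 0.0202 when libraries were scaled to total counts alone and 0.0210 with the strict filter of 10 CPM in 5 libraries. The muscle-type gene Pfkm, at 20.5 ± 6.27 and 25.4 ± 4.25 CPM, was not called. Exons of Pitrm1 overlap Pfkp on the other strand, and Pitrm1 was at 59.8 ± 6.89 and 59.1 ± 6.63 CPM.

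Among the hexokinases, which trap glucose as its phosphate, none passed. The general form Hk1 was at 37.2 ± 10.4 and 45.7 ± 5.47 CPM, the inducible form Hk2 at 89.1 ± 14.2 and 70.2 ± 7.57 CPM, and Hk3, the form of myeloid cells, at 139 ± 33.8 and 107 ± 10.8 CPM (SD, n = 5 each). Without CON 1, in which Hk2 (66.3 CPM) and Hk3 (93.5 CPM) were lower than in the other controls, both fell in MIA, with log2 fold changes of −0.44 ± 0.09 and −0.49 ± 0.11 (SE) and edgeR adjusted p of 0.00555 and 0.0105. Microglia markers were lower in the same MIA libraries, and their part in these values was not tested. The neuronal enolase Eno2 was scarce, at 1.496 ± 0.743 and 2.23 ± 0.57 CPM, and the lactate dehydrogenase chain Ldhb, which favours pyruvate, was at 293 ± 15.2 and 252 ± 16.2 CPM (edgeR adjusted p = 0.0597, and 0.0301 without CON 1).

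Levels in CON were also taken per kilobase of exon (union of the exons in GENCODE M21). This union can be longer than the transcript that is made, so an order that rests on it is uncertain. Hk3 stood at 37.8 ± 9.18 CPM per kilobase, above Hk2 at 14.9 ± 2.38 and Hk1 at 4.35 ± 1.22 (SD, n = 5). Pfkl at 16.7 ± 2.54 CPM per kilobase was above Pfkm at 6.12 ± 1.88 and Pfkp at 1.76 ± 0.41. In MIA Pfkp was at 3.48 ± 0.64 and still the lowest of the 3 by this measure. The exon union of Pfkp is 13401 bases against 3340 for Pfkm. In CPM, Pfkp was not below Pfkm (23.6 ± 5.4 and 20.5 ± 6.27 in CON, 46.7 ± 8.6 and 25.4 ± 4.25 in MIA). Eno1 at 151 ± 19.6 CPM per kilobase far exceeded Eno2 at 0.32 ± 0.16. Ldha at 199 ± 35.0 and Ldhb at 187 ± 9.70 CPM per kilobase did not differ beyond their spread, with exon unions of 3310 and 1570 bases. In CPM, Ldha was above Ldhb in CON (657 ± 116 against 293 ± 15.2). Gapdh led the list at 309 ± 40.2 CPM per kilobase. Pkm at 211 ± 35.7, Aldoa at 193 ± 18.4 and Pgam1 at 180 ± 21.7 CPM per kilobase came next with Ldha and Ldhb. The order of Pkm, Ldha, Aldoa, Ldhb and Pgam1 could not be told by their spread. The deposited counts were not whole for 13 of the 33 genes: in all 13 libraries for Gapdh, Pgk1, Pgam1, Eno1, Pkm, Pfkp and Bnip3l, in 12 for Gpi1, Ldhb and Bnip3, in 10 for Hif1a, in 6 for Mxi1 and in 1 for Hk1. Reads that fit more than 1 gene may have been divided there, and the levels of these genes are uncertain to that extent. The retrogene copy Eno1b held 4.11 to 8.03 CPM, and a second Ensembl identifier named Aldoa no more than 0.39 CPM.

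Neither of the 2 flux regulators passed in edgeR or DESeq2, and 1 of them had an unadjusted edgeR p under 0.05. Pfkfb3 makes the activator of phosphofructokinase and was at 99.9 ± 25.1 and 86.5 ± 13.4 CPM in CON and MIA, and Pdk1, a kinase that inhibits pyruvate dehydrogenase in mitochondria, at 99.4 ± 6.56 and 85.5 ± 6.43 CPM (SD, n = 5 each; edgeR adjusted p = 0.524 and 0.0860). Without CON 1 and CON 2, Pfkfb3 was called lower, at −0.45 ± 0.11 in log2 (SE) with an edgeR adjusted p of 0.0183, and without CON 1 alone Pdk1 was, at −0.25 ± 0.07 (edgeR adjusted p = 0.0383).

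Among the 5 oxygen-sensing genes, Epas1 rose and the others did not pass (20% called, against 10.3% of all genes tested). Hif1a ranged from 234 to 333 CPM in CON and from 264 to 319 CPM in MIA, and its log2 fold change was 0.02 ± 0.10 (SE). Its dimer partner Arnt was at 72.5 ± 5.20 and 77.2 ± 12.98 CPM. The hydroxylase genes were scarce: Egln1 stood at 4.74 ± 1.28 and 6.84 ± 0.87 CPM and Egln3, itself induced by low oxygen, at 4.96 ± 1.22 and 5.81 ± 1.37 CPM (SD, n = 5 each). The log2 ratio of Hif1a RNA to Epas1 RNA moved with Epas1, and the part of endothelial RNA in it was not tested. This ratio was 1.38 ± 0.20 in CON and 0.26 ± 0.36 in MIA, a difference of −1.11, with no overlap. Its exact permutation p was 0.00794, the smallest that 5 against 5 libraries allow, and the Benjamini-Hochberg adjusted p over 10 isoform pairs was 0.0794, which does not pass; without CON 1 it was 0.0265. Per kilobase of exon, Hif1a and Epas1 were at 49.7 ± 6.52 and 20.2 ± 2.57 CPM in CON and at 50.5 ± 4.09 and 44.9 ± 8.26 CPM in MIA, where they no longer differed beyond their spread.

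Of the 9 hypoxia-responsive genes, Adm and Ankrd37 rose, Car9 fell and 6 did not pass (33.3% called, against 10.3% of all genes tested). The mitophagy receptors Bnip3 and Bnip3l were at 90.1 ± 18.3 and 81.8 ± 17.3 CPM and at 136 ± 5.01 and 146 ± 6.84 CPM in CON and MIA (SD, n = 5 each). P4ha1 and P4ha2, subunits of the collagen prolyl hydroxylase, were at 164 ± 21.1 and 135 ± 12.6 CPM and at 6.69 ± 1.96 and 5.27 ± 1.90 CPM; P4ha1 had an edgeR adjusted p of 0.0937, and 0.0209 without CON 1. The MYC antagonist Mxi1 was at 18.9 ± 2.67 and 17.4 ± 2.13 CPM. Ndrg1, a stress-induced gene that oligodendrocytes and other cells also express, was the most variable: it stood at 16.6, 26.2, 9.10, 11.2 and 16.02 CPM in CON and at 51.9, 27.3, 17.8, 16.6 and 44.3 CPM in MIA. MIA 1 and MIA 5 were far above the rest and MIA 3 and MIA 4 lay within the controls, and its log2 fold change of 1.00 ± 0.38 (SE) did not pass, at an edgeR adjusted p of 0.146.

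**Figure D4:**
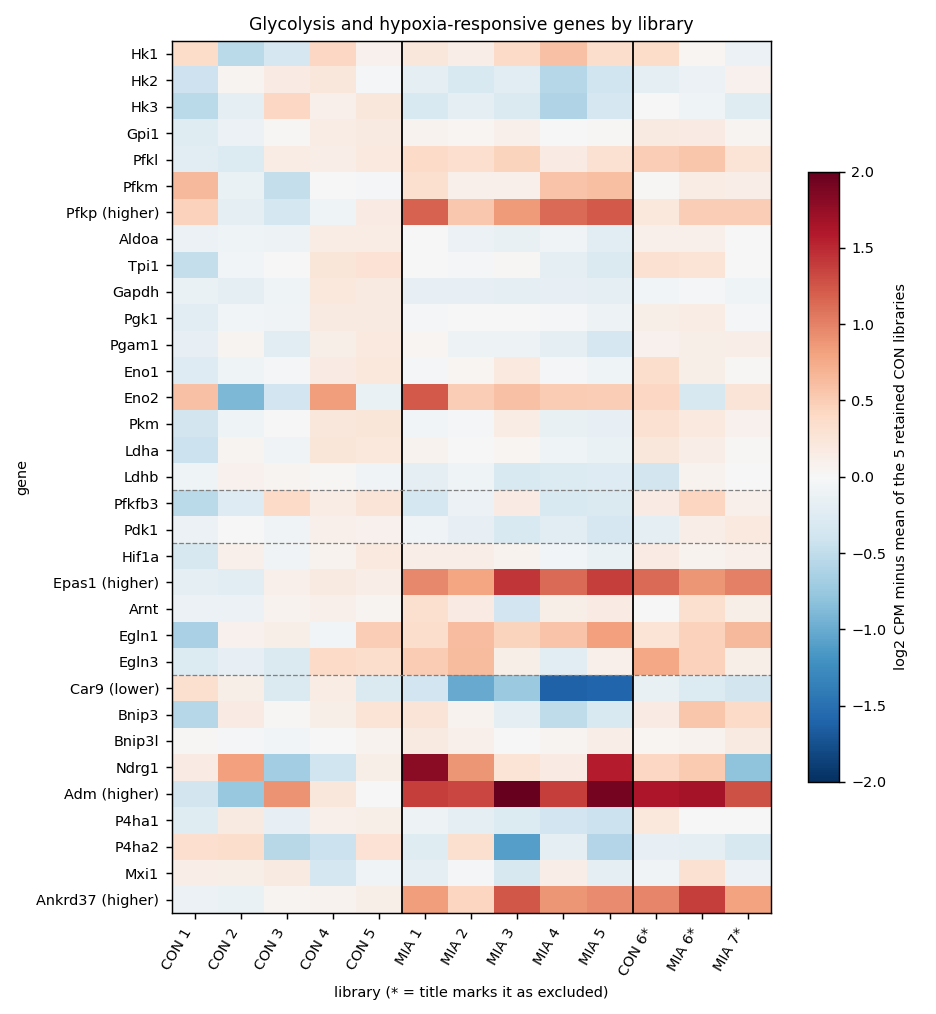
Log2 CPM of the 33 genes in all 13 libraries, each minus the mean of its 5 retained CON libraries; rows are grouped as glycolytic enzymes, flux regulators, oxygen sensing and hypoxia-responsive genes (dashed lines), and the colour scale ends at −2 and 2. The enzyme rows are pale in most libraries, with CON 1 blue for Tpi1, Ldha and Hk3, while the rows of Epas1, Adm and Ankrd37 are red in MIA 1 to MIA 5 and also in the excluded libraries CON 6, MIA 6 and MIA 7.

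Whether 2 members shifted unequally was tested for 10 pairs, and none passed after adjustment. At the smallest possible p a single pair cannot pass over 10. The shift of Pfkp over that of Pfkl was 0.66 in log2 (exact permutation p = 0.0397, adjusted p = 0.185), that of Hk2 over Hk1 was −0.67 and that of Hk3 over Hk1 −0.68 (exact permutation p = 0.0556 and 0.0794, adjusted p = 0.185 and 0.198). Without CON 1 these 3 pairs and Hif1a against Epas1 passed (exact permutation adjusted p = 0.0397, 0.0265, 0.0265 and 0.0265). Ldha against Ldhb differed by 0.20 (adjusted p = 0.251, exact permutation), and Pfkl against Pfkm by −0.01.

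Of 78 further genes of these pathways, 68 were tested, and 6 rose and 8 fell, together 20.6% against 10.3% of all genes tested (5.75% higher and 4.58% lower), the background for each list that follows. Sugar and lactate transport held 6 of these calls, with 3 of 9 genes higher and 3 lower. The glucose carrier Slc2a1, a gene of the blood-brain barrier, stood at 344, 306, 313, 325 and 328 CPM in CON 1 to CON 5 and at 644, 537, 936, 682 and 731 CPM in MIA 1 to MIA 5. All MIA libraries were above all retained controls, by 1.13 ± 0.12 in log2 (SE), and edgeR gave an adjusted p of 0.000145. The lactate and ketone carrier Slc16a1 rose by 1.32 ± 0.15, from 372 ± 71.2 to 932 ± 169 CPM, and its chaperone Bsg by 0.86 ± 0.13, from 741 ± 103 to 1343 ± 254 CPM (SD, n = 5 each). The same libraries were high in endothelial markers, and MIA 3 was the highest for Slc2a1 and Bsg as it was for that sum; the part of endothelial RNA was not tested. Slc2a5, the fructose carrier of microglia, stood at 165, 188, 163, 136 and 172 CPM in CON and at 128, 124, 120, 96.1 and 90.5 CPM in MIA, and fell by 0.56 ± 0.11 (SE; edgeR adjusted p = 0.00632). Slc2a8 (68.2 ± 6.57 to 51.4 ± 4.20 CPM) and Slc2a6 (11.2 ± 2.72 to 6.16 ± 1.92 CPM) fell too. Both were named after their values were seen. Slc2a6 no longer passed when any 1 of 7 libraries was left out (edgeR adjusted p at most 0.0909). Microglia markers were also lower in MIA, and their part in the falls of these carriers was not tested.

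**Figure D5:**
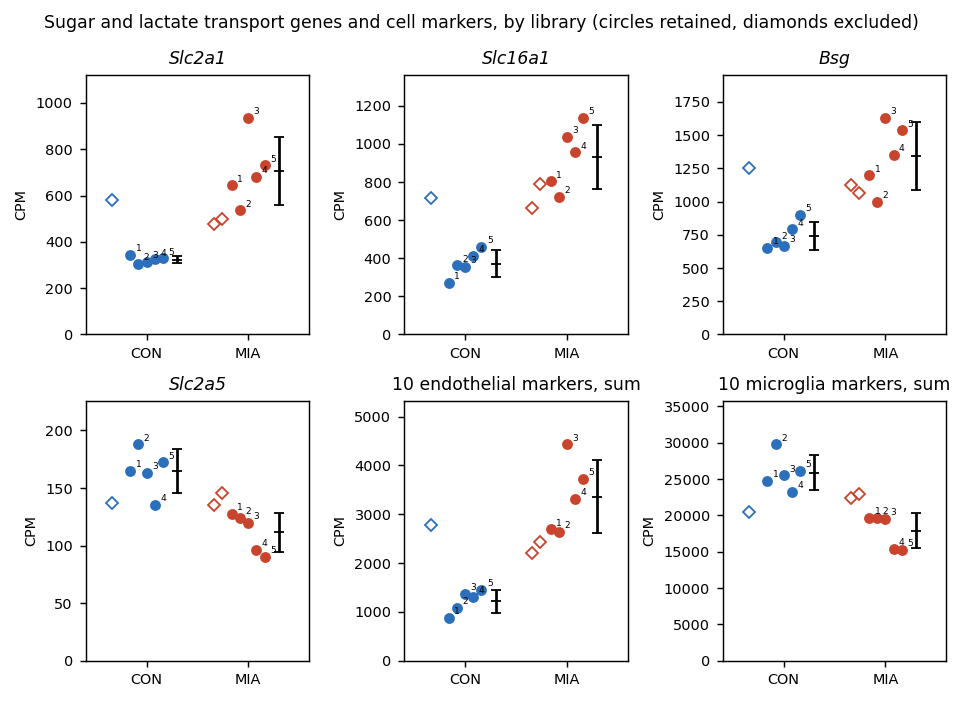
CPM of 4 transport genes and the summed CPM of 10 endothelial and 10 microglia markers in each library; circles are retained libraries with replicate numbers, diamonds the excluded libraries, bars the mean ± SD of 5. Slc2a1, Slc16a1 and Bsg are higher in the retained MIA libraries, as is the endothelial sum (874 to 1454 CPM in CON, 2634 to 4434 CPM in MIA). Slc2a5 and the microglia sum are lower in MIA.

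In the pentose phosphate branch, which makes NADPH, 2 of 6 tested genes fell and none rose: the entry enzyme G6pdx went from 129 ± 7.78 to 99.2 ± 7.57 CPM and Pgd from 139 ± 10.6 to 113 ± 6.36 CPM (SD, n = 5 each; edgeR adjusted p = 0.00511 and 0.0151). Leaving out either MIA 4 or MIA 5 ended the call of Pgd (edgeR adjusted p at most 0.0649). Of 16 regulators of flux and of pyruvate dehydrogenase, only Pfkfb4 passed, at 34.7 ± 4.83 and 23.7 ± 2.67 CPM, lower in MIA. Microglia markers were lower in the same MIA libraries (median log2 fold change −0.53). Their part in the falls of G6pdx, Pgd and Pfkfb4 was not tested. Of 6 tested further isoenzymes 1 rose, Bpgm, which makes the red cell metabolite 2,3-bisphosphoglycerate, from 25.2 ± 5.08 to 40.8 ± 5.08 CPM. Red blood cell markers summed to 61.4 to 2195 CPM in CON and 1742 to 3049 CPM in MIA. None of these 6 markers passed in edgeR, and their part in the rise of Bpgm was not tested.

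None of 12 other genes of oxygen sensing passed in edgeR or in DESeq2, nor did any reach an unadjusted edgeR p under 0.05. Among 19 tested other hypoxia-responsive genes 2 rose and 2 fell by edgeR, and DESeq2 called 3 higher and 2 lower. The transcription factor Bhlhe40 rose from 19.1 ± 9.77 to 55.6 ± 5.44 CPM and Angptl4, a lipase inhibitor, from 53.3 ± 13.2 to 86.2 ± 18.02 CPM, while the lipid droplet gene Plin2 fell from 490 ± 54.2 to 370 ± 8.73 CPM and Hmox1, the haem-degrading enzyme, from 215 ± 36.1 to 150 ± 14.3 CPM (SD, n = 5 each; edgeR adjusted p = 0.0175, 0.0294, 0.00597 and 0.0103). Angptl4 no longer passed when any 1 of 6 libraries was left out (edgeR adjusted p at most 0.0756), and Bhlhe40 no longer passed with no filter on low counts (edgeR adjusted p = 0.0571). Bhlhe40 was lowest in CON 1 and CON 2, at 9.63 and 7.91 CPM, the libraries low in dissociation-induced genes. Its highest retained control was at 28.7 CPM and its lowest retained MIA library at 49.6 CPM. The part of tissue dissociation in these values was not tested. For Plin2 and Hmox1, the part of the lower microglia markers in MIA was not tested. Vegfa, the classic vessel growth factor induced by HIF, named after its values were seen, stayed at or below 0.52 CPM in the retained libraries and was not tested.

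Among the excluded libraries, the control did not lie with the retained controls for 3 of the 4 genes that rose. In CON 6, MIA 6 and MIA 7, Epas1 was at 247, 208 and 225 CPM, Adm at 8.41, 8.74 and 6.59 CPM and Ankrd37 at 7.16, 9.45 and 6.31 CPM, so the excluded control lay among the MIA values. Their endothelial markers summed to 2778, 2206 and 2426 CPM, also above every retained control. Neuronal markers summed to 73.4, 78.5 and 68.3 CPM in them, against 58.4 to 78.1 CPM in retained CON and 107 to 160 CPM in retained MIA. The part of either marker list in the values of this paragraph was not tested. Pfkp was at 26.8 CPM in CON 6, within the retained controls, and at 32.6 and 32.4 CPM in MIA 6 and MIA 7, just above the highest of them. Car9 was at 4.77, 4.40 and 4.09 CPM, and the 17 enzymes summed to 7074, 6893 and 6425 CPM, all above the 5 retained MIA libraries.

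With all 13 libraries in their labelled groups, 2 of the 33 members passed, Pfkp and Epas1 (4.22% of all genes tested were called). Adm and Ankrd37 then had edgeR adjusted p of 0.0641 and 0.0570, and Car9 0.0896. With all 13 except CON 1 and CON 2, chosen after seeing the data, Pfkp was at 0.88 and Hk3 at −0.48 in log2 (edgeR adjusted p = 0.0444 for each), and no other member passed (0.561% of all genes called); Epas1 was at 0.64 (edgeR adjusted p = 0.117). Among the retained libraries without CON 1 and CON 2, 8 members passed (12.2% of all genes called): Pfkp, Epas1, Adm and Ankrd37 higher, and Hk2, Hk3, Pfkfb3 and Gapdh lower. Gapdh was then at −0.30 ± 0.08 (SE; edgeR adjusted p = 0.0312) and Car9 lost its call (edgeR adjusted p = 0.0977). Without CON 1 alone 11 members passed (14.4% of all genes called), adding Hk2, Hk3, Ldhb, Pdk1 and P4ha1 as lower and Pfkm as higher to the 5.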

How the data were processed

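RNA was sequenced from CD11b bead-selected cells of postnatal day 4 mouse brain in 13 libraries. The values the authors deposited are expected counts, in 1 table for all libraries; such estimates may hold fractions, and they carry no scaling across libraries. RSEM, STAR and DESeq2 are named without version or role, per the submitters' processing notes, and the sources used here name neither build nor annotation. Per the labels' protocols, libraries were made by a modified Smart-Seq2 method with tagmentation, which does not mark strand and has no molecular identifiers. SEs and intervals of fold changes come from the edgeR fit and carry the spread between libraries.

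Counts were rounded (20.6% of nonzero values were not whole). Symbols were assigned by Ensembl identifier without version (55141 of 55487). The main test was edgeR 4.0.16's robust quasi-likelihood test under R 4.3.3, after filterByExpr and TMM scaling, with group as the only term, over 15511 genes, with Benjamini-Hochberg adjustment at 0.05. SEs are the log2 fold change over the square root of F. Printed CPM values use TMM factors taken over all 13 libraries. Log2 CPM uses a prior count of 2, and 3 counts equal 0.0875 to 0.117 CPM. Isoform pairs and totals used 2-sided exact permutation tests. DESeq2 1.42.0 was an alternative. Promoters came from RefSeq (GRCm38.p6; 30 of 33 members matched), exon lengths from GENCODE M21. The fit and the permutation test were tested on simulated data.

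The members and lists were chosen with earlier results of these data known. Named were members past the threshold and the 6 most abundant with every library's value, other members by mean or range, and up to 4 passing genes of each further list. The further lists were transport, other isoenzymes, regulators, pentose phosphate, oxygen sensing and other hypoxia genes. Marker lists were microglia, endothelium, neurons, astrocytes, red cells, monocytes and neutrophils, and dissociation.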

Additional observations from a re-analysis of the deposited data

Results flagged for a closer look

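Of 66 combinations of a member and a retained group, 1 held a library far from the rest of its group: Eno2, the neuronal enolase, in MIA 1, with a log2 CPM of 1.73 (3.25 CPM) against 1.01 to 1.10 in the other 4 MIA libraries. Its gap to the next library was 0.869 of the group's range. Chance alone flags about 1 in 20 such groups. Neuronal markers summed to 122 CPM in MIA 1, inside the MIA range of 107 to 160 CPM.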

How the results depend on the processing

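Over all genes, 1602 calls became 659 with all 13 libraries, 90 with all 13 except CON 1 and CON 2, and 1037 to 2263 without 1 library (1057 without MIA 4, 1037 without MIA 5). 55.7% of calls were higher, or 67.6% with total counts only (1036 higher, 496 lower). Members called higher, 4, were 2 with all 13 libraries, 1 with all 13 except CON 1 and CON 2, and 4 to 5 without 1 library. Members called lower, 1, were 2 with DESeq2 (Ldhb added), 4 without CON 1 and CON 2, and 0 with all 13 libraries and with the strict filter (10 CPM in 5 libraries), which leaves out Car9, Adm and Ankrd37. Without 1 library they were 0 to 6. Other pathway genes called higher, 6, were 1 with all 13 except CON 1 and CON 2 and 5 to 6 without 1 library; those lower, 8, were 5 with all 13 libraries, 2 with all 13 except CON 1 and CON 2, and 6 to 9 without 1 library. Isoform pairs past the threshold, 0, were 1 with all 13 libraries and 0 to 4 without 1 library (4 without CON 1). Pfkp kept direction and call in all 19 alternative fits and Epas1 in 18.

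Members that changed sign lay near 0 and never passed. With all 13 libraries Bnip3 was at 0.031 and Eno1 at −0.037. With all 13 except CON 1 and CON 2, Egln3 was at −0.083, Eno1 −0.149, Gpi1 −0.075, Hif1a −0.053 and Mxi1 0.023. Without CON 1 and CON 2, Eno1 was at −0.111, Gpi1 −0.084, Hif1a −0.053 and the log2 ratio of P4ha1 to P4ha2 −0.165. With total counts only Ldha was at 0.023 and Pgk1 at 0.019, and with the strict filter Ldha was at 0.003. Without 1 library each, Eno1 ran from −0.051 to 0.063, Gpi1 −0.019 to 0.085, Hif1a −0.051 to 0.071, Ldha −0.134 to 0.021, Pgk1 −0.098 to 0.001, Pkm −0.147 to 0, P4ha1 against P4ha2 −0.1 to 0.238 and Pfkl against Pfkm −0.228 to 0.144. The cause of these changes was not tested.

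Equal replicate numbers were not taken to pair the libraries: their deviations correlated at 0.058 to 0.302, and not every library correlated best with its own number. With the replicate block 1524 genes passed, 1361 of them shared, and Ndrg1 was added among the members (log2 fold change 0.95, edgeR adjusted p = 0.0299). For the isoform pairs 0 passed with the block, where the smallest possible exact p is 0.0625. Depth limits the scarce members: Adm, Ankrd37, Car9, Eno2, Egln1, Egln3 and P4ha2 were under 11 CPM in every library.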
